A study of Mus musculus with 14 samples.

Results

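Insulin-like growth factor (IGF) signalling was followed here through 8 genes, out of 49671 gene identifiers in each of 2 count tables: the ligand gene Igf1, its receptor Igf1r, the receptor substrates Irs1 and Irs2, and the binding proteins Igfbp3, Igfbp4, Igfbp5 and Igfbp6. They were taken by symbol through the Ensembl identifiers in the tables, and all 8 passed the filter on low counts in both. IGF1 binds a receptor tyrosine kinase on the cell surface, and the activated receptor phosphorylates IRS proteins, which dock PI3 kinase and so switch on AKT and mTOR. The binding proteins hold IGFs outside the cell and can restrain or carry them, and several also bind matrix. In skeletal muscle the pathway is known for fibre growth and for the proliferation and differentiation of satellite cells, the stem cells that lie along the fibres.

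RNA came from satellite cells sorted without culture from C57BL/6J mice at rest (hind-limb, triceps and pectoral muscles), 1000 cells to a library, gated as integrin B1+ and CXCR4+ and against Sca1, Ter119, CD45, CD31 and CD11b. In the first dataset 4 libraries labelled FosGFP+ and 4 labelled FosGFP- came from 4-month-old mice with a GFP reporter of Fos, an immediate early gene whose product is a subunit of the AP-1 transcription factor. In the second, 3 libraries labelled FoscKO, a conditional knockout of Fos, and 3 labelled Control came from 6-month-old mice. The series text gives 4 and 3 mice, ties no library to a mouse, names neither the Cre driver nor the deleted exons, and puts both FoscKO and Control cells through a gate on FosGFP+, so p-values measure the spread between these libraries only.

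FosGFP+ libraries held 3806776 to 5983711 counts in genes and FosGFP- libraries 2652230 to 4067543. FoscKO libraries held 4797954 to 10241655 and Control libraries 5326686 to 6930696. FoscKO replicate 1 stood apart, with 30.2% of its reads in genes against 15.9% and 22.7% in the other FoscKO libraries. Levels are CPM, counts scaled to a common library size after TMM normalisation. Fos itself stood at 8442, 2876 and 3805 CPM in the libraries labelled FoscKO and at 5044, 5025 and 4733 CPM in Control, with a log2 fold change of 0.03 (edgeR adjusted p = 0.996). The Fos count over the whole gene was thus not lower in FoscKO and does not bear out the label. A count over all exons may not check a deletion of some of them. In the first dataset Fos had 3098 to 5398 CPM in the libraries labelled FosGFP+ and 7908 to 12883 CPM in those labelled FosGFP-. Its log2 fold change was -1.25 (edgeR adjusted p = 9.33e-04), opposite in direction to the labels. The labels name a gate on the GFP reporter, and how GFP and Fos mRNA relate in these cells was not tested. The mRNA therefore does not settle whether the labels are right. Group names below stand for the libraries so labelled. The satellite cell genes Pax7 and Myf5 were present in every library, at 32.1 to 85.9 and at 133 to 628 CPM. The Sca1 gene Ly6a, gated against, averaged 0.125 to 0.944 CPM over the groups, and Ptprc, the CD45 gene, also gated against, had 25.3 to 74.4 CPM. The macrophage gene C1qa averaged 1.74 to 2.97 CPM.

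In GRCm38, Igf1 (ENSMUSG00000020053) lies on the plus strand of chromosome 10 from 87858265 to 87937042, and Igf1r (ENSMUSG00000005533) on the plus strand of chromosome 7 from 67952827 to 68233668. Irs1 (ENSMUSG00000055980) lies on the minus strand of chromosome 1 from 82233101 to 82291416, and Irs2 (ENSMUSG00000038894) on the minus strand of chromosome 8 from 10984681 to 11008458. Igfbp5 (ENSMUSG00000026185) is on the minus strand of chromosome 1 from 72857932 to 72874884, Igfbp6 (ENSMUSG00000023046) on the plus strand of chromosome 15 from 102144362 to 102149511. Igfbp3 (ENSMUSG00000020427) and Igfbp4 (ENSMUSG00000017493) share chromosome 11, from 7206086 to 7213923 on the minus strand and from 99041244 to 99054392 on the plus strand. The library kit does not keep the strand, and 2 genes share exon sequence with a gene of the other strand. Irs1 shares 2822 of its 9144 exonic bases with Gm9747, which had 0 counts in all 14 libraries. Irs2 shares 162 of its 6323 exonic bases with 9530052E02Rik, which had 4 to 22 counts per library. Reads in shared bases cannot be given to either gene, so some reads of Irs1 and Irs2 may be missing from their counts.

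RefSeq promoter windows (GRCm38.p6, 250 bases before to 50 after the annotated start) were found for 8 of 8 genes. Because the study concerns Fos, they were searched on both strands for TGANTCA, where N is any letter. The letters AP-1 is known to bind have C or G at N, so this search was wider than that site. TGANTCA was in 1 of the 8 windows, that of Igf1, and in 7.81% of 32851 windows over all genes. The Igf1 match, TGAATCA, has A at N and so is not that narrower site. GTAAACA, the letters of the FOXO factors that AKT restrains, was in 0 of the 8 and in 3.65% of all windows. The Igf1 window (chr10:87860861-87861160, plus strand) is printed for that match, set in capitals, which begins 37 bases before the annotated start. That start lies inside the gene model above, downstream of its first base. The Irs2 window (chr8:11008880-11009179, minus strand) belongs to the gene of the 8 with the highest level. Letters found or not found in a window describe the sequence only.
Igf1: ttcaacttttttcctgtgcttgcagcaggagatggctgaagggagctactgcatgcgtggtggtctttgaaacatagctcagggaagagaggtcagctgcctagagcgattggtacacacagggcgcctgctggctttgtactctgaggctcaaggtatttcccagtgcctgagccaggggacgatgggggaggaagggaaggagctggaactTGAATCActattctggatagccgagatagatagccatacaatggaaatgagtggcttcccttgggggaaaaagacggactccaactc
Irs2: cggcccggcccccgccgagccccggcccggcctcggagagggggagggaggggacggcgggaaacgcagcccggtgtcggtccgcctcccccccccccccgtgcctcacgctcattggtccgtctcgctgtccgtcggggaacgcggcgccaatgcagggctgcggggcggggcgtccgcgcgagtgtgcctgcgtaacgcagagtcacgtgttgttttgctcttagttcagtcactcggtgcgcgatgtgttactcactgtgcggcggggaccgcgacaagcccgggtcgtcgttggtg
The Irs2 window held 41 CG dinucleotides and 72.0% G or C. The Igf1 window held 6 CG dinucleotides and 52.3% G or C. Igfbp5 and Igfbp6 were likewise poor in CG, with 10 and 8, and Igf1r was the richest of the 8 with 48.

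Irs2 was the most abundant of the 8 per length in both datasets. On the scale of CPM per exonic kb it averaged 97.9 over the 8 libraries of the first dataset and 102 over the 6 of the second. Next came the binding proteins Igfbp5 (35.8 and 58.5), Igfbp4 (28.1 and 41.7) and Igfbp6 (11.4 and 17.2), in the same order in both datasets. Igf1r had 6.09 and 4.91 CPM per exonic kb, Igf1 had 5.08 and 10.1, Igfbp3 had 2.61 and 9.51, and Irs1 had 1.92 and 3.36. No background was subtracted from these levels. Irs2 was above Igfbp5 in 8 of 8 and 6 of 6 libraries, and Igfbp5 above Igfbp4 in 6 of 8 and 6 of 6. The ranges over libraries of every pair of neighbours in this order overlapped in both datasets. Igf1 and Igfbp3 could not be put in order in the second dataset, where Igf1 was above Igfbp3 in 3 of 6 libraries. The datasets were counted and scaled in separate tables, so a level in one is not compared with the other.

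**Figure D1:**
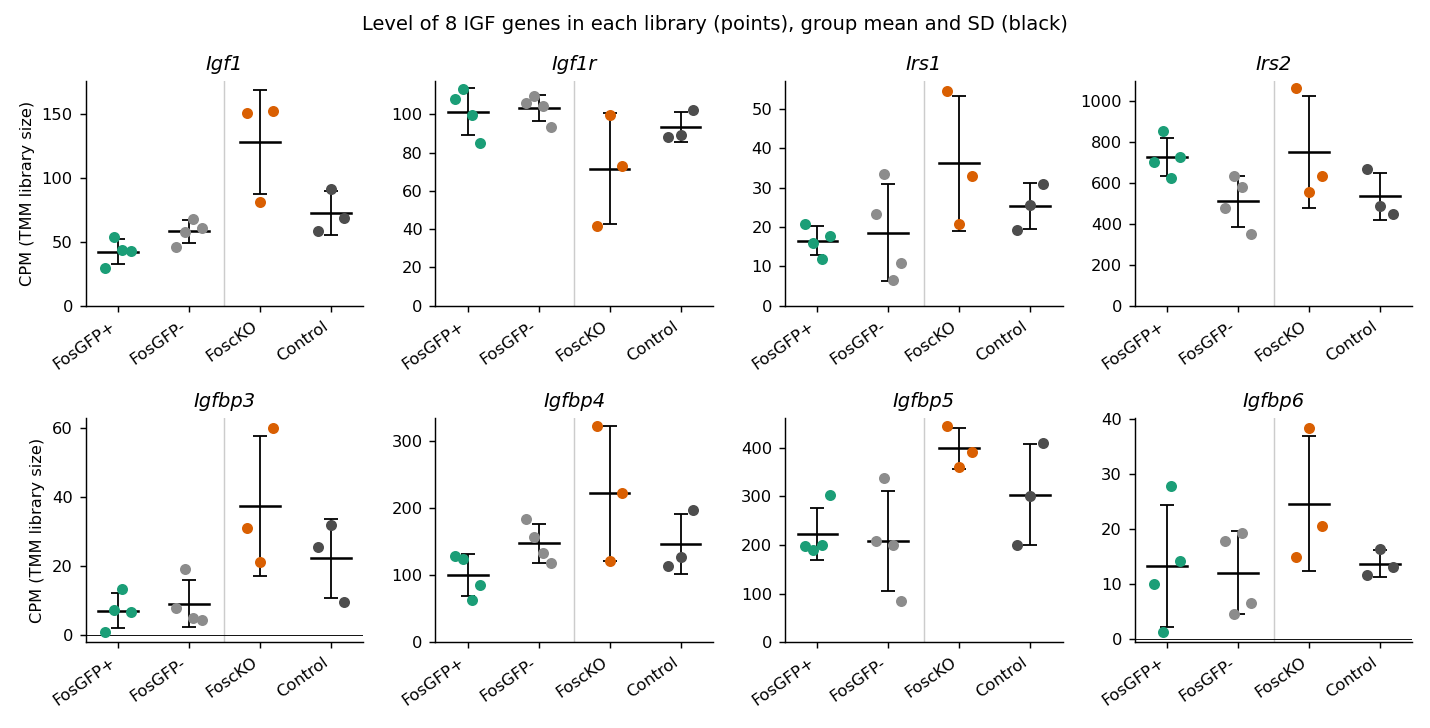
Level of each gene in every library, in CPM of the TMM library size on the vertical axis, for FosGFP+, FosGFP-, FoscKO and Control libraries; points are libraries, the black line is the group mean and the bar its SD (n = 4, 4, 3 and 3). In every panel the points of a group overlap those of the group it is set against, and Irs2 reaches 1062 CPM in 1 FoscKO library.

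In the first comparison, cells labelled as from the positive gate of the Fos reporter were set against cells labelled as from its negative gate. Fos mRNA was lower in the former, as given above. None of the 8 genes passed the test: 0 were called by edgeR's quasi-likelihood test at a Benjamini-Hochberg adjusted p under 0.05, by DESeq2 or by limma-voom, and 2, Irs2 and Igfbp4, had an unadjusted p under 0.05. Over all 20698 genes tested 12.1% were called, 10.3% higher and 1.85% lower in FosGFP+. An unadjusted edgeR p under 0.05 was found for 5457 of them, and for 2471 of the 4002 with at least 50 CPM on average. In bulk libraries such as these, fewer cells of a type and less RNA per cell cannot be told apart. The libraries of the groups overlapped for all 8, while they did not overlap for 19.3% of genes tested. The median log2 fold change was -0.10 over the 8 genes and -0.18 over all genes. Of the 4002 genes with at least 50 CPM on average, however, 43.0% were called, with a median of 0.57. The 5 of the 8 at that level, Igf1, Igf1r, Igfbp4, Igfbp5 and Irs2, had 0 calls and a median of -0.03.

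Igf1, which encodes the ligand, had 29.5, 53.7, 43.2 and 42.7 CPM in FosGFP+ libraries, against 46.3, 57.4, 68.1 and 61.2 CPM in FosGFP- libraries. In FosGFP+, 3 of 4 libraries were below every FosGFP- library and 1 lay within the FosGFP- range. The log2 fold change was -0.46 ± 0.22 (SE), with a 95% interval of -0.93 to 0.01 and an edgeR adjusted p of 0.200. The antisense transcript Igf1os shares 0 exonic bases with Igf1.

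Igf1r, which encodes the receptor, had 108, 113, 99.5 and 84.9 CPM in FosGFP+ libraries, against 106, 109, 104 and 93.5 CPM in FosGFP- libraries. The groups lay on top of each other. The log2 fold change was -0.03 ± 0.17 (SE), with a 95% interval of -0.39 to 0.34 and an edgeR adjusted p of 0.938. On this scaling the interval leaves out a change of 1 log2 unit either way.

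Irs2, a docking protein between the receptors for IGF1 and insulin and PI3 kinase, had 701, 852, 626 and 727 CPM in FosGFP+ libraries, against 478, 633, 579 and 352 CPM in FosGFP- libraries. In FosGFP+, 3 of 4 libraries were above every FosGFP- library. The log2 fold change was 0.51 ± 0.20 (SE), with an edgeR adjusted p of 0.106 (0.0529 with DESeq2), close to the median of 0.57 for genes of at least 50 CPM. Irs1, the other substrate, had 20.7, 15.9, 11.9 and 17.6 CPM in FosGFP+ libraries, against 23.4, 33.6, 6.61 and 10.8 CPM in FosGFP- libraries. All FosGFP+ libraries lay inside the FosGFP- range, and the log2 fold change was -0.17 ± 0.41 (SE; edgeR adjusted p = 0.816). Irs1 had 23 and 36 reads over its 9144 exonic bases in FosGFP- replicates 3 and 4. The even background described below was estimated at 3.74 and 4.17 reads per exonic kb there, and neither library stood above it. After its subtraction the log2 fold change of Irs1 was -0.26 ± 1.14 (SE).

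Igfbp4, a soluble binding protein that the protease PAPP-A cuts, had 129, 124, 63.4 and 85.1 CPM in FosGFP+ libraries, against 184, 157, 133 and 118 CPM in FosGFP- libraries. In FosGFP+, 2 of 4 libraries were below every FosGFP- library. The log2 fold change was -0.56 ± 0.23 (SE), with an edgeR adjusted p of 0.138. Igfbp5, known as a binding protein of muscle cells that also binds matrix, had 198, 189, 200.2 and 303 CPM in FosGFP+ libraries, against 209, 337, 199.6 and 84.8 CPM in FosGFP- libraries. The FosGFP- libraries spanned a wider range and held all FosGFP+ values (log2 fold change 0.10 ± 0.30 (SE), edgeR adjusted p = 0.856).

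Igfbp3, the main carrier of IGFs in blood, was near the limit of detection, with 4, 35, 47 and 31 reads in FosGFP+ libraries and 36, 67, 18 and 15 reads in FosGFP- libraries. Its log2 fold change of -0.39 had a 95% interval from -1.66 to 0.89 (edgeR adjusted p = 0.705), which does not leave out a change of 1 log2 unit downwards. Igfbp6, which prefers IGF2 as its ligand, had 10.0, 1.25, 27.9 and 14.2 CPM in FosGFP+ libraries, against 17.8, 4.59, 19.3 and 6.57 CPM in FosGFP- libraries. The spread within each group far exceeded the difference between groups, a log2 fold change of 0.12 with a 95% interval from -1.20 to 1.45 (edgeR adjusted p = 0.918).

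The call depended on the scaling. With total counts in place of TMM, the median of all genes moved by -0.40 log2 units, and Igf1 (-0.87, edgeR adjusted p = 0.0171) and Igfbp4 (-0.96, 0.00827) were called lower in FosGFP+, where 10.8% of all genes were. With TMM factors taken from genes of at least 50 CPM alone, called high-level TMM here, the median moved by -0.58, and Igf1 (-1.06, 0.00565), Igf1r (-0.61, 0.0146) and Igfbp4 (-1.15, 0.00258) were called lower, where 25.4% of all genes were. Relative to that shift Igf1 stood at -0.47, Igf1r at -0.03 and Igfbp4 at -0.56, close to the values with TMM over all kept genes. A change of scaling moves all genes by nearly the same amount, so this closeness follows by construction and is no separate check. Igfbp4 was also called lower after an even background of reads was subtracted (-0.81, edgeR adjusted p = 0.0438), where 1.63% of genes were called lower and the median moved by -0.19. That background was estimated from olfactory, vomeronasal and taste receptor genes. It made up 6.40% to 10.7% of gene counts in FosGFP+ and 13.0% to 19.5% in FosGFP- libraries, and its part in these values was not tested beyond that subtraction. Irs2 was not called in any of these settings and turned to -0.06 under high-level TMM.

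**Figure D2:**
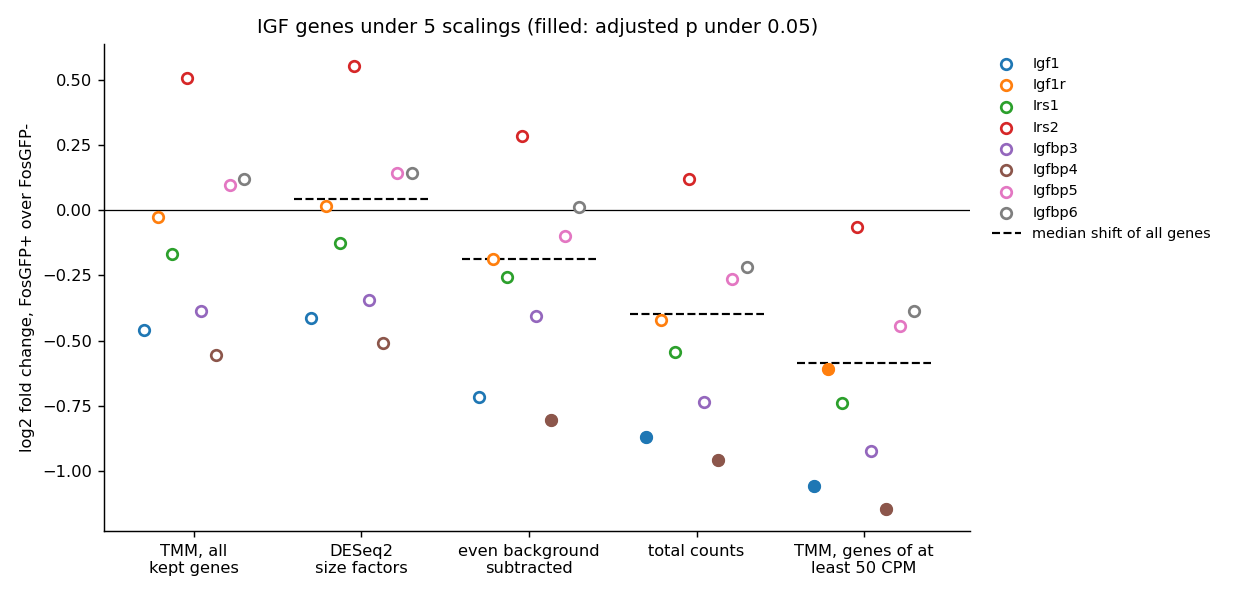
Log2 fold change of each gene, FosGFP+ over FosGFP- (vertical axis), under 5 scalings of the same counts (horizontal axis); filled points have an edgeR adjusted p under 0.05 and the dashed line is the median shift of all genes against TMM over all kept genes. Under total counts and high-level TMM (labelled TMM, genes of at least 50 CPM) the 8 genes move down with that shift, and Irs2 is highest and Igfbp4 lowest under all 5 scalings.

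Ratios between genes of one library do not depend on the scaling, and were looked at after the values above had been seen. The even background was not subtracted from them, and its part in the ratios was not tested. Per exonic kb, Irs2 was 37.2, 24.9, 22.7 and 26.7 times Igf1 in FosGFP+ libraries, against 16.2, 17.3, 13.3 and 9.01 times in FosGFP- libraries. Irs2 was 17.2, 20.03, 16.7 and 22.7 times Igf1r in FosGFP+ libraries, against 12.0, 15.4, 14.8 and 10.0 times in FosGFP- libraries. The groups overlapped in neither ratio. Of the 28 ratios among the 8 genes 4 did not overlap between groups, and of all pairs of genes of at least 5 CPM 19.7% did not. The 4 include Irs2 to Igfbp4 and Igf1r to Igfbp4, while Irs2 to Irs1 overlapped.

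Of 73 other genes of the IGF and insulin pathway 69 were tested, and 15 were higher and 1 lower in FosGFP+ by edgeR (23.2%, where 12.1% of all genes were called). Among its 34 genes of at least 50 CPM 14 were called, or 41.2%, near the 43.0% of all genes at that level. By role, 0 of 4 ligands and carriers, 0 of 3 receptors, 0 of 1 tested binding proteins and 0 of 5 proteases and their inhibitors were called, against 5 of 13 adaptors and feedback genes, 3 of 14 genes of the PI3 kinase and AKT group, 4 of 14 of the mTOR branch 2 of 10 FOXO genes and targets, 1 of 2 GSK3 kinases and 1 of 3 genes for proteins that bind Igf2 mRNA. The roles also differ in level, and most genes of the roles with 0 calls averaged under 50 CPM. Whether roles differ in their calls was not tested. Igf2 had 28.7 ± 3.38 CPM in FosGFP+ and 19.6 ± 5.53 CPM in FosGFP- (SD, n = 4 each), with a log2 fold change of 0.54 and an edgeR adjusted p of 0.197. Igf2r, which clears IGF2, had a log2 fold change of 0.64 (edgeR adjusted p = 0.177), the insulin receptor gene Insr one of -0.41 (0.365), and Igfbp7 one of 0.08 (0.877). Grb10, an adaptor that restrains IGF1 and insulin receptors, had 295 ± 17.3 CPM in FosGFP+ and 222 ± 84.6 CPM in FosGFP- (SD, n = 4 each), and its log2 fold change of 0.40 had an edgeR adjusted p of 0.322. Igfbp2 averaged 2.93 CPM in FosGFP+ and 2.89 CPM in FosGFP- and did not pass the filter.

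Igf2bp2, which encodes a protein that binds Igf2 and other mRNAs, rose most by p in FosGFP+, with 192 ± 48.6 CPM in FosGFP+ and 49.1 ± 13.4 CPM in FosGFP- (SD, n = 4 each). Its log2 fold change was 1.97 ± 0.24 (SE; edgeR adjusted p = 1.61e-04). The adaptor Grb2, which links receptors to the RAS pathway, stood at 86.4 ± 22.3 CPM in FosGFP+ and 30.8 ± 0.872 CPM in FosGFP- (log2 fold change 1.49 ± 0.21, SE). Akt2 (1.29) and Akt1 (1.06), the kinases below PI3 kinase, and Rheb (1.05), the GTPase that activates mTOR, were higher, as were the cap-binding factor gene Eif4e (1.34) and its inhibitor Eif4ebp1 (1.22). Shc1 (1.10), an adaptor beside the IRS proteins, Ptpn1 (0.83), a phosphatase that turns insulin and IGF receptors off, Gsk3a (1.08), a kinase that AKT inhibits, and Pdk4 (0.90), a FOXO target that blocks pyruvate use, were also higher. The feedback inhibitors went apart, with Socs1 higher (70.4 ± 18.6 CPM in FosGFP+ and 26.3 ± 4.61 CPM in FosGFP-, log2 fold change 1.42) and Socs3 lower (412 ± 67.7 CPM in FosGFP+ and 884 ± 138 CPM in FosGFP-, log2 fold change -1.10; SD, n = 4 each). Both are better known as brakes of cytokine receptors. With total counts 9 of the list were higher and 8 lower, and under high-level TMM 8 and 17, in place of 15 and 1, so the balance of directions rested on the scaling. Gsk3a, Pdk4 and Ptpn1 lost their calls under both of these scalings (edgeR adjusted p of 0.0524 to 0.279), Akt1 lost its call under high-level TMM (0.0523) and Gsk3a also after background subtraction (0.0532). Insr was called lower in FosGFP+ under both (-0.84 and -1.04, edgeR adjusted p of 0.0473 and 0.0164).

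**Figure D3:**
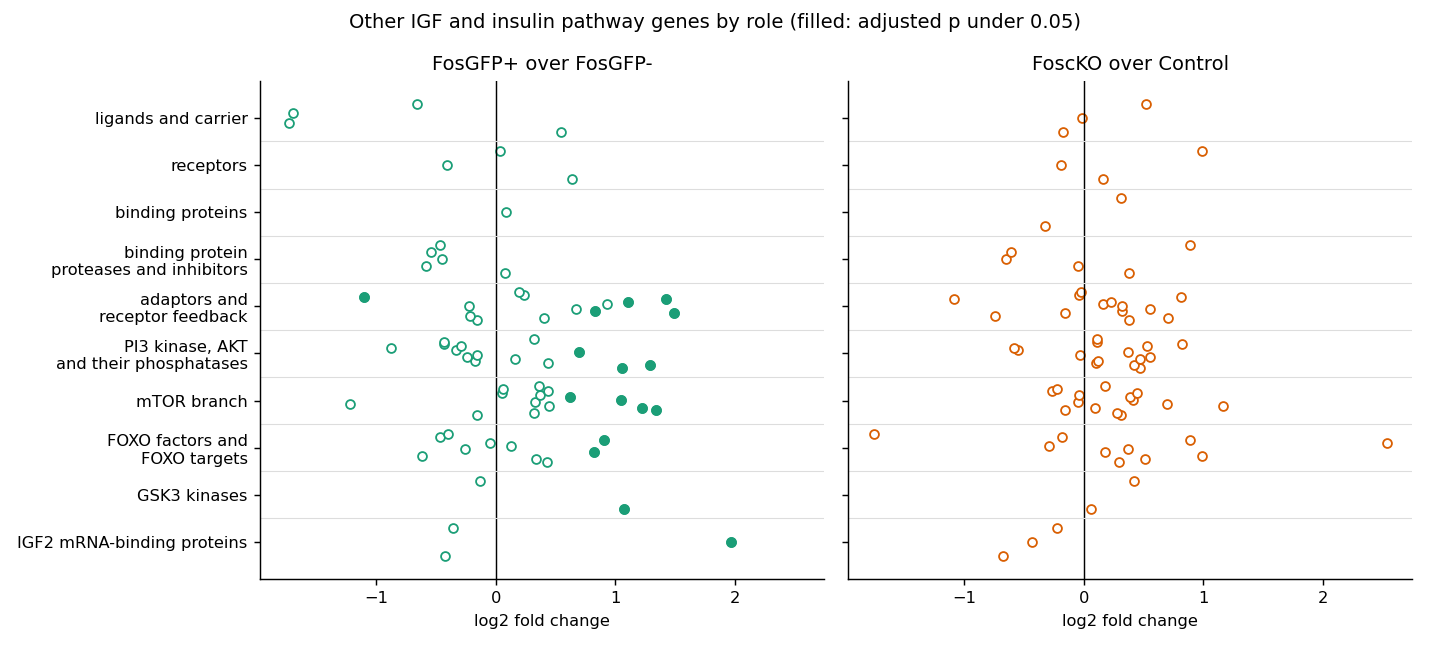
Log2 fold change (horizontal axis) of the other IGF and insulin pathway genes that passed the filter, one point a gene, by role (rows), FosGFP+ over FosGFP- at the left and FoscKO over Control at the right; filled points have an edgeR adjusted p under 0.05 with TMM over all kept genes. Of 69 genes 16 are filled at the left and 0 of 69 at the right.

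The second comparison sets libraries labelled as deleted for Fos against their controls, by labels that the Fos counts do not bear out. None of the 8 genes passed the test: 0 were called by edgeR, DESeq2 or limma-voom, and 1, Igf1, had an unadjusted p under 0.05. Over all 21885 genes edgeR called 0 (0.0%), with 1208 at an unadjusted p under 0.05. DESeq2 called 59 higher and 34 lower, and limma-voom 3 and 3. The log2 fold change was above 0 for 7 of the 8 genes, with a median of 0.56 against -0.04 over all genes and 0.24 over the 3869 genes of at least 50 CPM. It was above 0 for 10369 of all 21885 genes. Among those of at least 50 CPM it was above 0 for 3048 of 3869, and for 4 of the 5 members at that level. The groups overlapped for all 8, while they did not overlap for 12.2% of genes tested.

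Igf1 had 151, 80.9 and 153 CPM in FoscKO libraries, against 58.2, 91.5 and 68.4 CPM in Control libraries. In FoscKO, 2 of 3 libraries were above every Control library. The log2 fold change was 0.82 ± 0.29 (SE; edgeR adjusted p = 0.783), and without FoscKO replicate 1 it was 0.69 (0.871). Igf1r had 41.9, 99.7 and 73.0 CPM in FoscKO libraries, against 88.0, 89.4 and 102 CPM in Control libraries. It was the one of the 8 with a value below 0, at -0.38 ± 0.30 (SE; edgeR adjusted p = 0.914), and it stood at -0.11 without FoscKO replicate 1, its lowest library.

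Irs2 had 1062, 555 and 634 CPM in FoscKO libraries, against 666, 489.6 and 449 CPM in Control libraries, a log2 fold change of 0.49 (edgeR adjusted p = 0.914) that was 0.15 without FoscKO replicate 1. Irs1 had 54.7, 20.7 and 33.1 CPM in FoscKO libraries, against 19.3, 25.5 and 31.0 CPM in Control libraries, with a log2 fold change of 0.52 (0.10 without FoscKO replicate 1). Igfbp4 had 322, 122 and 222 CPM in FoscKO libraries, against 114, 127 and 197 CPM in Control libraries, with a log2 fold change of 0.60 (0.24 without that library). For these 3 genes the highest value of all 6 libraries was that of FoscKO replicate 1.

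Igfbp5 had 444, 361 and 391 CPM in FoscKO libraries, against 201, 300.2 and 410.3 CPM in Control libraries, with a log2 fold change of 0.39 (edgeR adjusted p = 0.914). The Control libraries spread widely and reached into the FoscKO range. Igfbp3 had 30.9, 21.1 and 59.9 CPM in FoscKO libraries, against 25.5, 31.7 and 9.61 CPM in Control libraries, with a log2 fold change of 0.75 and a 95% interval from -0.21 to 1.70. Igfbp6 had 14.9, 38.4 and 20.6 CPM in FoscKO libraries, against 11.6, 16.3 and 13.2 CPM in Control libraries, and 2 of 3 FoscKO libraries were above every Control library. Its log2 fold change was 0.84 ± 0.40 (SE; edgeR adjusted p = 0.91), and 1.09 without FoscKO replicate 1 (0.599). Of the 28 ratios among the 8 genes 1, of Igf1r to Igfbp6, did not overlap between the groups, against 12.9% of all pairs of genes of at least 5 CPM.

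**Figure D4:**
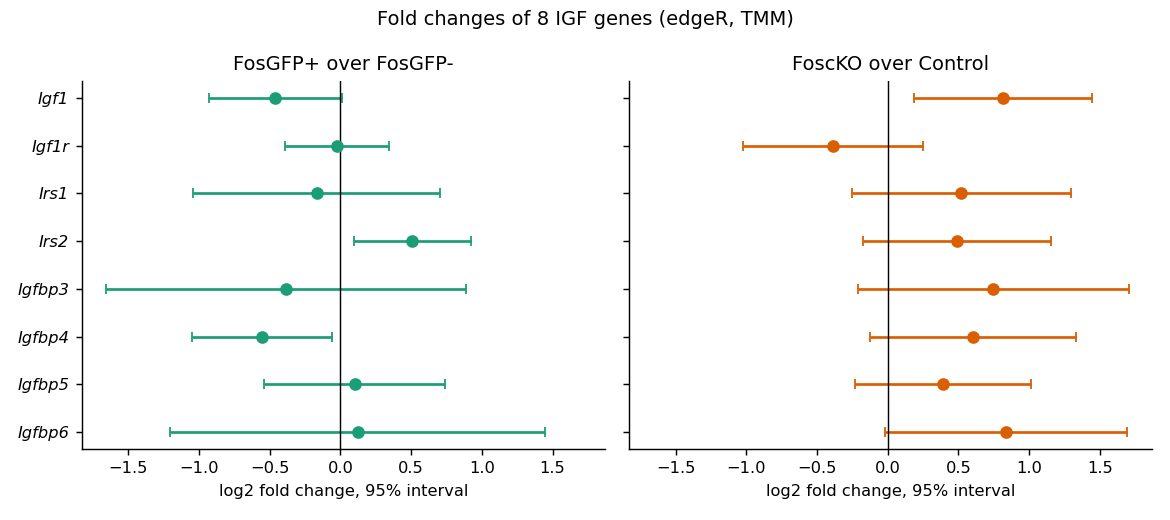
Log2 fold change (horizontal axis) of the 8 genes (rows) with its 95% interval from edgeR with TMM, FosGFP+ over FosGFP- (left, n = 4 each) and FoscKO over Control (right, n = 3 each). The intervals of Igfbp4 and Irs2 at the left and of Igf1 at the right leave out 0 before adjustment, and none of the 16 passed an adjusted p of 0.05.

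In the other pathway list 0 of 69 tested genes were called by edgeR in the second comparison, and 8 had an unadjusted p under 0.05, as had 1208 of all 21885 genes and 492 of the 3869 of at least 50 CPM. The receptor brake Grb10 had 441 ± 92.3 CPM in FoscKO and 271 ± 10.9 CPM in Control (SD, n = 3 each), with libraries that did not overlap (as for 12.2% of all genes), a log2 fold change of 0.70 and an edgeR adjusted p of 0.783. Igf2 had a log2 fold change of -0.17, Igf2r of 0.16, Insr of -0.19, Igfbp2 of -0.32 and Igfbp7 of 0.31, with edgeR adjusted p-values of 0.917 or more. The largest fold among the tested genes of this list was that of Foxo6, a FOXO factor, named after its values were seen, with 11.9 ± 4.67 CPM in FoscKO and 2.05 ± 2.32 CPM in Control (SD, n = 3 each) and a log2 fold change of 2.54 (edgeR adjusted p = 0.549). Control was near the limit of detection for Foxo6, from 0.675 to 4.72 CPM with a median of 0.749, where 1 read was worth 0.135 to 0.187 CPM. The authors' deposited table for this comparison lists 69 genes, among them Foxo6 (1.61 when turned to FoscKO over Control, adjusted p = 0.0296) and 0 of the 8. Their deposited table for the first comparison lists 3422 genes, among them 17 of the pathway list and 0 of the 8. Both tables list genes with an adjusted p under 0.05 only.

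Several of these genes are also made by other cells of muscle, and markers of such cells differed between libraries. The tenocyte list (7 genes) summed to 30.3 to 696 CPM in FosGFP+, 40.8 to 1201 CPM in FosGFP-, 27.5 to 46.2 CPM in FoscKO and 35.2 to 49.8 CPM in Control libraries. The fibro-adipogenic progenitor list (14 genes), led by Gsn and Col3a1, which satellite cells may also express, summed to 4027 to 5278 CPM in FosGFP+, 2593 to 5359 CPM in FosGFP-, 5579 to 10417 CPM in FoscKO and 6353 to 7999 CPM in Control libraries. Of the tested tenocyte genes 0 of 6 were called in the first comparison, and of the progenitor genes 2 of 13, Smoc2 and Lpl, both lower in FosGFP+. Log2 fold changes there were below 0 for 4 of the 6 tenocyte genes (median -1.20) and 9 of the 13 progenitor genes (median -0.80). The median over all genes was -0.18. Of the leukocyte, endothelium, smooth muscle and Schwann cell lists 0 of 7, 1 of 10, 1 of 9 and 0 of 5 tested genes were called, the 2 calls lower in FosGFP+, and none of these lists had a call in the second comparison by edgeR. All 10 tested endothelium genes had log2 fold changes below 0 in the first comparison, 4 of them with libraries that did not overlap, and the list summed to 206 to 248 CPM in FosGFP+ and 260.2 to 357 CPM in FosGFP- libraries. The satellite cell list (12 genes) summed to 10395 to 13925 CPM in FosGFP+ and 5820 to 8582 CPM in FosGFP- libraries, with 4 of 12 genes called, all higher in FosGFP+. These were Sdc4 (5416 CPM in FosGFP+ and 2069 CPM in FosGFP- on average), Vcam1, Des and Itgb1, all above 50 CPM. Pax7 (-0.44), Calcr (-0.51, with libraries that did not overlap), Chodl (-0.40) and Cdh15 (-0.09) had log2 fold changes below 0 and were not called. For comparison, 12.1% of all genes and 43.0% of those of at least 50 CPM were called in either direction, and 1.85% of all genes were called lower. In that first comparison 12484 of all 20698 genes tested had log2 fold changes below 0, and the libraries did not overlap for 19.3%. The mature fibre list (10 genes) summed to 390 to 1486 CPM in FoscKO and 1301 to 2669 CPM in Control libraries, with all 10 below 0, 8 of them at an unadjusted edgeR p under 0.05 and 0 called. Of all 21885 genes in that comparison 11516 were below 0 and 1208 had such a p. In the first comparison 9 of the 10 fibre genes were above 0 in FosGFP+, 1 of the 10 had such a p and 0 were called. The part of these cell types in the values of the 8 genes was not tested.

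Igfbp6 is set here beside the matrix gene Fmod of the tenocyte list, a pair picked after the values were seen. Fmod, which encodes a collagen-binding protein, stood at 107, 0.627, 434 and 12.8 CPM in FosGFP+ replicates 1 to 4, where Igfbp6 had 10.0, 1.25, 27.9 and 14.2 CPM. In FosGFP- replicates 1 to 4 Fmod stood at 751, 0.574, 405 and 169.7 CPM, where Igfbp6 had 17.8, 4.59, 19.3 and 6.57 CPM. In both groups replicate 2 had the lowest value of both genes. Those values rest on few reads, 6 of Igfbp6 and 3 of Fmod in FosGFP+ and 16 and 2 in FosGFP-. In the second dataset Fmod was at 0.936 to 3.37 CPM in every library while Igfbp6 had 11.6 to 38.4 CPM. Dcn, a matrix gene of the fibro-adipogenic progenitor list, was not near 0 there, with 78.6, 162 and 67.0 CPM in FoscKO replicates 1 to 3 and 24.7, 38.6 and 91.9 CPM in Control replicates 1 to 3. Its highest value was in FoscKO replicate 2, the library with the most Igfbp6. Pdgfra and Col1a1 of the same list had their lowest values of the second dataset in that library, at 7.27 and 45.5 CPM. Of the 13 tested genes of that list, 8 had log2 fold changes above 0 in the second comparison and 5 below 0, with Dcn at 0.98 and Pdgfra at -1.04. In the first dataset Dcn had 379.8, 34.5, 209 and 76.2 CPM in FosGFP+ replicates 1 to 4 and 341, 300.3, 547 and 157 CPM in FosGFP- replicates 1 to 4. The part of such cells in the Igfbp6 values was not tested.

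**Figure D5:**
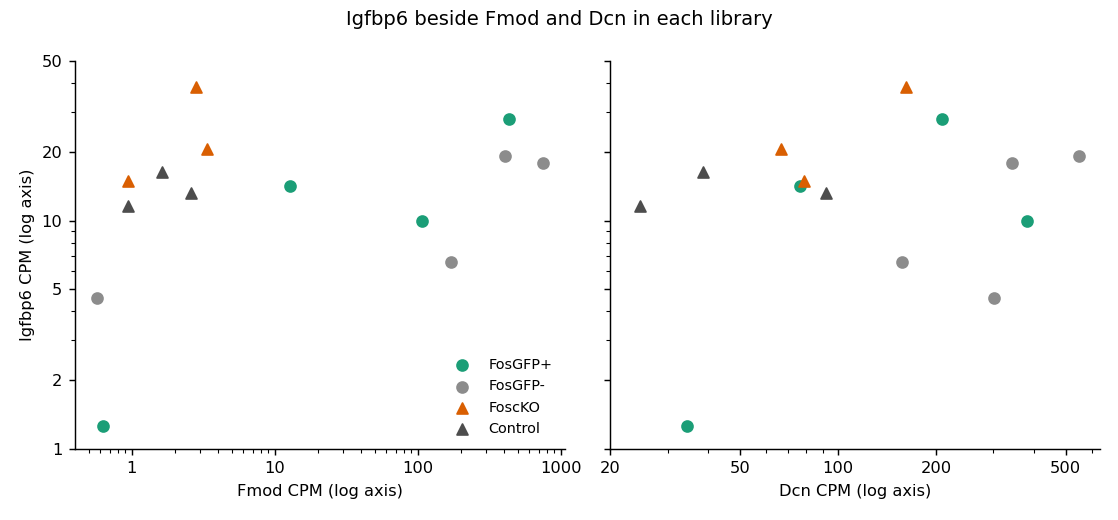
Igfbp6 (vertical axis, CPM, log axis) beside the matrix genes Fmod (left) and Dcn (right; horizontal axes, CPM, log axes) in each of the 14 libraries, coloured by group. In the first dataset (circles) the FosGFP+ and FosGFP- libraries with under 1 CPM of Fmod have 1.25 and 4.59 CPM of Igfbp6 (6 and 16 reads), the lowest of their groups, while the second dataset (triangles) has 11.6 to 38.4 CPM with Fmod at or under 3.37 CPM and Dcn at 24.7 to 162 CPM.

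The genes most like each of the 8 across libraries were taken as those with the highest likeness, the smaller of a Pearson correlation of log2(CPM + 0.5) over the 8 libraries of the first dataset and 1 over the 6 of the second, among 13697 others of at least 5 CPM. Each library gives all its genes the same depth and background, so these values are a description over few libraries. Igf1 was most like Smc6 (0.85 and 0.96) and Med30 (0.85 and 0.95), Igf1r most like C87977 (0.94 and 0.91) and Prkce (0.94 and 0.90), and Irs1 most like Tmem94 (0.89 and 0.90) and Htra1 (0.88 and 0.97). Irs2 was most like Gnl1 (0.96 and 0.96) and Usp36 (0.95 and 0.95). Of the binding proteins, Igfbp3 was most like Rchy1 (0.85 and 0.96) and Gtf2e2 (0.83 and 0.85), and Igfbp4 most like Psen2 (0.95 and 0.95) and Mum1 (0.94 and 0.95). Igfbp5 was most like Slitrk5 (0.89 and 0.86). Igfbp6 was most like Fbln1 (0.88 and 0.83), which encodes a fibulin, a matrix protein, and Gm45025 (0.79 and 0.78). None of the 8 was among the genes named for another of the 8.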

How the data were processed

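Whole-number read counts per Ensembl gene, deposited by the authors with 1 column per library, were the starting point, in 2 tables counted separately. HTSeq 0.6.1 and STAR 2.5.0c, limma, DESeq2 1.20.0 and the GRCm38 build are named, per the submitters' processing notes. Per the labels' protocols, RNA of 1000 sorted cells was amplified with SMART-Seq v4, which keeps no strand, and cut with Nextera XT. The authors' deposited comparison tables hold log2 fold changes, which run FosGFP- over FosGFP+ and Control over FoscKO by their sign against the counts, and p-values, for genes with an adjusted p under 0.05 only. Another 14 per-library columns there match no label and were not used. The 5 HTSeq lines that name no gene stayed out of library sizes. Reads in genes were 17.0% to 23.2% of all reads in the tables in FosGFP+, 10.3% to 14.1% in FosGFP-, 15.9% to 30.2% in FoscKO and 16.8% to 19.0% in Control. One read was worth 0.120 to 0.299 CPM.

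Each dataset was fitted alone with edgeR 4.0.16 in R 4.3.3 (filterByExpr, TMM, robust quasi-likelihood F-test, two-sided, Benjamini-Hochberg over all genes tested, called under 0.05), after the fit had been tested on simulated data. Alternatives were DESeq2 1.42.0, limma-voom (limma 3.58.1), other scalings and filters, an even background per exonic kb subtracted, the replicate number as a block, and each library left out in turn. Exonic bases came from GENCODE M21, which held 49326 of the 49671 identifiers. All 8 genes are named, with Igf2, Igf2r, Insr, Igfbp2, Igfbp7 and Grb10 of the pathway list, every called gene of that list up to 12 a direction by smallest p, and the 2 genes most alike to each of the 8, of which 1 is not reported here. Exceptions are marked. The 8 genes and all lists were chosen with earlier results of these data known. Of 43 pairs of libraries 0 were identical.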

Additional observations from a re-analysis of the deposited data

Results flagged for a closer look

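Among 54 groups of 4 libraries, 1 for each group and gene named, 4 held a library far from the other 3, and chance alone flags about 1 group in 20. Igfbp5 stood at 303 CPM in FosGFP+ replicate 4, against 189 to 200.2 CPM in the other FosGFP+ libraries. Akt1 was low in FosGFP+ replicate 3, at 159 CPM against 203 to 211 CPM in the others. Gsk3a was high in FosGFP+ replicate 4, at 74.9 CPM against 60.2 to 61.7 CPM in the others. Eif4e was high in FosGFP- replicate 3, at 110.4 CPM against 78.7 to 83.6 CPM in the others.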

How the results depend on the processing

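In the first comparison the number of the 8 genes called, 0 with TMM over all kept genes, was 2 with total counts, 3 under high-level TMM (factors from genes of at least 50 CPM) and 1 after background subtraction, and 0 with each library left out. Calls in the pathway list numbered 25 under high-level TMM and 14 to 16 with each library left out. Some log2 fold changes turned: Igf1r to 0.018 with DESeq2 size factors or DESeq2 and 0.062 with no filter, Igfbp5 to -0.26, -0.44 and -0.10, and Igfbp7 to -0.29, -0.47 and -0.11 (total counts, high-level TMM, background subtracted). Igfbp6 turned to -0.22 with total counts, -0.39 under high-level TMM, -0.39 with limma-voom and -0.12 with the replicate block. Irs2 (-0.062), Igf2 (-0.032) and Grb10 (-0.14) turned under high-level TMM, and Irs1 with limma-voom (0.056) and the replicate block (0.039). With each library left out, values crossed 0 for Igf1r (-0.061 to 0.082), Igfbp3 (-0.81 to 0.27), Igfbp5 (-0.15 to 0.46), Igfbp6 (-0.47 to 0.53), Irs1 (-0.43 to 0.30) and Igfbp7 (-0.12 to 0.24). None of the turned values was called, and apart from the scalings the cause was not tested. In the second comparison the 8 genes kept direction and had 0 calls in every refit, 72 of single genes under other settings and 48 with a library left out, 1 pathway gene was called with no filter, and Igf2r turned to -0.045 with total counts and -0.041 under high-level TMM. With each library left out Igf2 (-0.34 to 0.081), Igfbp2 (-1.08 to 0.27), Igfbp7 (-0.0052 to 0.61) and Igf2r (-0.0039 to 0.36) crossed 0. Over all genes edgeR called 2125 higher and 383 lower in the first comparison, 1005 and 2243 with total counts, 722 and 5252 under high-level TMM and 1314 and 256 after background subtraction. In the second it called 0, against 85 higher and 46 lower with no filter, 12 and 20 with a filter at 5 CPM, 12 and 33 with total counts, 11 and 32 under high-level TMM, 2 and 13 after background subtraction, 23 and 20 with the replicate block, and 16 and 27 without FoscKO replicate 1. Deviations of same-numbered libraries correlated at -0.01 to 0.03 in the first comparison and at -0.04 to 0.21 in the second, with 0 of 4 and 1 of 3 numbers best matched to themselves. No label ties the numbers to mice, so whether they mark pairs is not known and the replicate block is given as an alternative. With the replicate block the 8 genes had 0 calls in both comparisons and the pathway list 15 and 0. Igfbp3 in the first comparison rests on 4 to 67 reads per library.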
